A study of Mus musculus with 6 samples.

Results

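The NRF2 antioxidant response was followed through 9 genes: Nfe2l2, Keap1, Nqo1, Gclc, Gclm, Hmox1, Srxn1, Txnrd1 and Slc7a11. They were taken as every probe set of the array whose single gene symbol in the platform annotation was that of a member. All 9 genes were represented, by 16 of the 22626 probe sets tested. The arrays measured liver tumours of 6 male mice, 3 tumours of Alb/AEG-1 transgenic mice and 3 tumours of wild-type (WT) mice, with 1 Affymetrix array per tumour. The transgenic mice carried an AEG-1 construct, injected into B6CBAF1/J embryos as a 5.3-kb fragment. AEG-1, short for astrocyte elevated gene-1, is encoded by Mtdh in the mouse, and both groups are labelled with the CD-1 background strain. Alb is the symbol of the albumin gene, whose promoter is active in hepatocytes, but the labels do not spell out the parts of the construct or its founder lines. Mice of both groups had received N-nitrosodiethylamine (DEN), a liver carcinogen that is activated by cytochrome P450 and alkylates DNA, in 1 injection when 14 days old, at 10 µg per g of weight. Tumours were taken at 28 weeks of age. No untreated liver was among the arrays, so each value below describes a DEN-induced tumour with or without the transgene.

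NRF2, encoded by Nfe2l2, is a transcription factor that is held in the cytoplasm and passed to the proteasome by KEAP1, an adaptor of a CUL3 ubiquitin ligase. Oxidants and electrophiles modify cysteines of KEAP1, and NRF2 then accumulates, pairs with a small MAF protein and binds antioxidant response elements at genes for glutathione synthesis, thioredoxin recycling, quinone reduction and heme breakdown. In the liver this response protects hepatocytes from reactive metabolites, and in some human hepatocellular carcinomas it is switched on by mutation of NFE2L2 or KEAP1. Much of the control of NRF2 itself lies in protein stability, which an RNA array does not measure.

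The start regions of the members other than Gclc and Hmox1 were searched for such elements, and sequence further from the starts was not. RefSeq promoter windows of build GRCm38.p6, running from 250 bases before to 50 bases after a transcript start, were at hand for 7 of the 9 members, in 9 windows. Both strands were searched for the core element TGACNNNGC and its variant TGAGNNNGC. At least 1 match lay in 5 of the 9 windows, which belong to Srxn1, Nfe2l2, Gclm, Txnrd1 and Slc7a11, while 27.8% of all 32851 promoter windows held a match. Srxn1 had 3 matches, of which that 45 bases upstream of the start overlapped the AP-1 motif TGANTCA, present in 7.81% of all windows. A match describes the letters of the window and is no evidence of binding. The windows of Nfe2l2 and Keap1 are printed because these genes had the lowest p-values among the members, and that of Srxn1 because it held the most matches. Capitals mark a match to either motif, and the Keap1 window held none. The Nqo1 window, which is not printed, held none either.
Nfe2l2 (chr2:75704614-75704913, minus strand): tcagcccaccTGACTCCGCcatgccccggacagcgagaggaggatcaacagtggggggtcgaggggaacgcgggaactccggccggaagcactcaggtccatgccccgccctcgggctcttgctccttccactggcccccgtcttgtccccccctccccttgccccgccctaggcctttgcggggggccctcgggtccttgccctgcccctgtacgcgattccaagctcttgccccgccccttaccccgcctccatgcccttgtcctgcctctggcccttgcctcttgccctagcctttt
Keap1 (chr9:21239283-21239582, minus strand): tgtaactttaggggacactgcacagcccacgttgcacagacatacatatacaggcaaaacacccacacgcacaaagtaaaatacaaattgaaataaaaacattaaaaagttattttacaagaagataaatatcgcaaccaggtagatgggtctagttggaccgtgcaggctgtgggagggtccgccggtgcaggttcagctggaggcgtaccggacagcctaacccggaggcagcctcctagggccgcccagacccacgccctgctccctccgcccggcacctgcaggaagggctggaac
Srxn1 (chr2:152105274-152105573, plus strand): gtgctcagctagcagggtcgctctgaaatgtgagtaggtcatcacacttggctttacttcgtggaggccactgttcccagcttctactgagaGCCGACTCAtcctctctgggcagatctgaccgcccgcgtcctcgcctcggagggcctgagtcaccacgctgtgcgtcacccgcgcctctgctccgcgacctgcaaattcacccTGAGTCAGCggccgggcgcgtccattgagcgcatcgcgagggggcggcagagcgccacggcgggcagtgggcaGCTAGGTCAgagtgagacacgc
The single matches of the other 3 members are given with 10 bases on either side, again with the match in capitals. The Gclm match began 134 bases upstream of the start, that of Slc7a11 97 bases upstream, and that of Txnrd1 92 bases upstream of the second of its 3 listed starts.
Gclm (chr3:122245413-122245441, plus strand): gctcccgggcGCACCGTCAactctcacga
Txnrd1 (chr10:82859104-82859132, plus strand): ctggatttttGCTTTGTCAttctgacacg
Slc7a11 (chr3:50443692-50443720, minus strand): taatgttggcGCTTTCTCAagctggagtt

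Every value below is a log2 expression level of a probe set as deposited, made with RMA, and every difference is Alb/AEG-1 minus WT on that log2 scale. Levels of different probe sets are not set against each other, since probes differ in brightness. Differences were tested with limma over all probe sets, with Benjamini-Hochberg adjustment, and 3 arrays per group limit the precision. The animal numbers in the titles form a lower range (Alb/AEG-1 replicates 1 and 2, WT replicate 1) and a higher range (Alb/AEG-1 replicate 3, WT replicates 2 and 3), and the labels do not say what the numbers mark. Each difference given below for 1 range thus has a single array on 1 side, WT replicate 1 or Alb/AEG-1 replicate 3. Such values describe these arrays only. Array medians lay within 0.0289 of each other. The hepatocyte genes Alb, Ttr and Apoa1 were between 14.13 and 14.64 on all 6 arrays. The Mtdh probe set with the highest mean was at 9.57, 9.40 and 9.15 in Alb/AEG-1 tumours and at 9.32, 9.03 and 9.16 in WT tumours (0.20 ± 0.13, SE, limma, adjusted p = 0.677). Differences of the other Mtdh probe sets lay between -0.09 and 0.19. None of these values is a check of the genotype, because the labels do not give the transcript of the transgene. Macrophage and Kupffer cell markers were higher in Alb/AEG-1 tumours for 12 of 12 genes. Over all genes, taken with 1 probe set each, 5925 of 12393 were higher. Of the 12 markers 4 had an unadjusted limma p below 0.05, against 8.33% of all genes in either direction and 3.86% higher in Alb/AEG-1. Their mean level over the list was 7.35, 7.65 and 7.88 in Alb/AEG-1 tumours and 7.43, 6.95 and 7.12 in WT tumours, so the groups overlapped, with Alb/AEG-1 replicate 1 below WT replicate 1. Of the other marker lists, the neutrophil list had 1 of 4 genes at an unadjusted p below 0.05 and the rest had 0. Mean levels of these lists (hepatocytes, T and NK cells, B cells, neutrophils, endothelium, stellate cells, cholangiocytes and erythroid cells) overlapped between the groups. Below the median probe set lay 4 of 5 measured T and NK cell genes, 3 of 3 for B cells and 3 of 4 for neutrophils. The same held for 4 of 4 cholangiocyte and 2 of 3 measured erythroid genes, so overlap in these lists sets no firm bound. RMA gives no value of 0, so no marker could be called absent. In whole tumours, fewer cells of a type and less RNA per cell cannot be told apart.

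None of the NRF2 genes differed between Alb/AEG-1 and WT tumours past the threshold, and their differences were small. Adjusted over all probe sets, 0 of 16 passed (limma, lowest adjusted p = 0.596), where 1 probe set of all tested did (0.00442%). At an unadjusted limma p below 0.05 there were 2 of 16, both higher in Alb/AEG-1 tumours, against 8.06% of all probe sets in either direction and 3.68% higher in Alb/AEG-1. These were the probe set of Nfe2l2 and 1 of 2 probe sets of Keap1. In the same 2 probe sets the 3 Alb/AEG-1 arrays lay entirely above the 3 WT arrays, as in 6.28% of all probe sets. The groups lay apart in either direction in 14.7% of all probe sets. Each of these member counts is 12.5% of the 16 probe sets and rests on the same 2 of them. As given above, all 12 macrophage and Kupffer cell markers were higher in Alb/AEG-1 tumours, 4 of them at an unadjusted limma p below 0.05. Their mean level overlapped between the groups, and the part of these markers in the 2 differences was not tested. The median difference was 0.06 over the 16 probe sets and -0.01 over all probe sets, with 10 of the 16 positive and 6 negative. Of all 22626 probe sets, 10583 were positive and 12043 negative. The 95% intervals of all 16 differences lay inside a 2-fold change in either direction and 11 lay inside 1.5-fold. Both counts include Slc7a11 and the dimmest Txnrd1 probe set, whose means lay above those of only 11.9% and 6.46% of probe sets. Differences can be compressed at such levels, so these intervals set no firm bound.

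**Figure D1:**
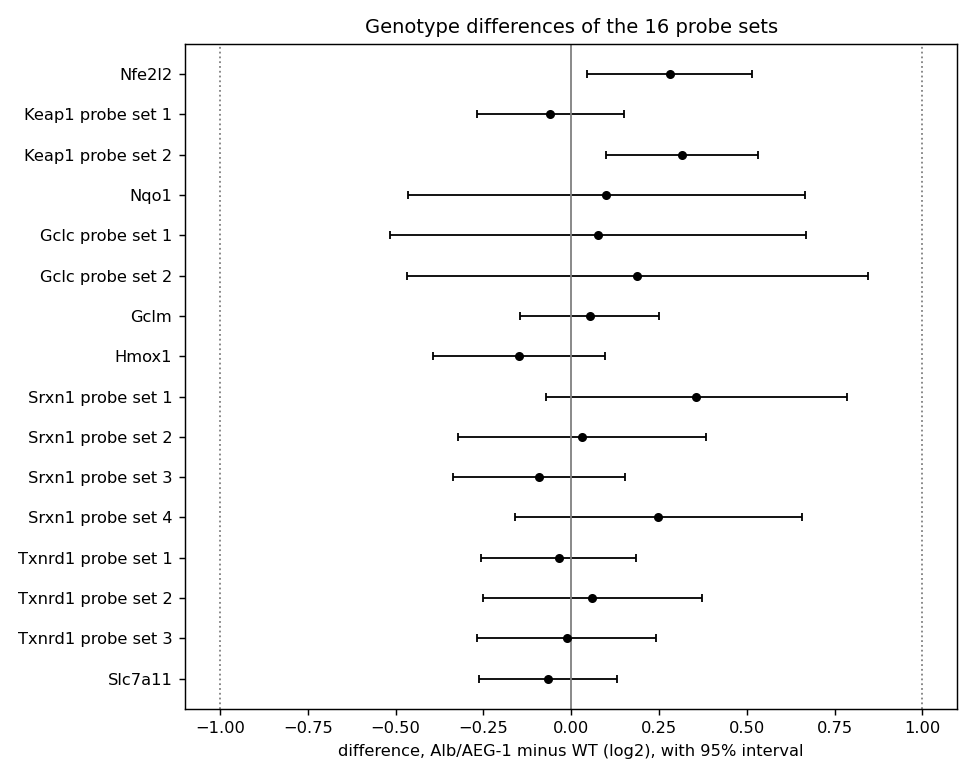
Difference in log2 expression level between 3 Alb/AEG-1 and 3 WT tumours (horizontal axis) for the 16 probe sets of the 9 genes, with bars for the 95% interval of the limma fit and dotted lines at a 2-fold change. The intervals of Nfe2l2 and of Keap1 probe set 2 do not reach 0, and no interval reaches a dotted line.

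Nfe2l2 encodes NRF2 itself. Its single probe set was at 9.36, 9.45 and 9.31 in Alb/AEG-1 tumours and at 9.25, 8.95 and 9.07 in WT tumours. All 3 transgenic values were above all 3 WT values, with WT replicate 1 the closest to them. The difference was 0.28 ± 0.10 (SE), 1.22-fold with a 95% interval of 1.03 to 1.43 (limma, unadjusted p = 0.0251, adjusted p = 0.609). Among the lower-numbered tumours it was 0.16 and among the higher-numbered 0.29. The unadjusted p was above 0.05 when Alb/AEG-1 replicate 1 (0.053), Alb/AEG-1 replicate 2 (0.0784), WT replicate 2 (0.083) or WT replicate 3 (0.0632) was left out in turn in limma, with differences between 0.21 and 0.36 over all 6 such fits.

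Keap1 encodes the cysteine-rich sensor that binds NRF2, and its 2 probe sets differed. Where a gene had several probe sets they are numbered by falling mean level. Keap1 probe set 2 was at 6.64, 6.63 and 6.73 in Alb/AEG-1 tumours and at 6.39, 6.45 and 6.21 in WT tumours, again with no overlap. This is a difference of 0.32 ± 0.09, 1.24-fold with an interval of 1.07 to 1.45 (limma, unadjusted p = 0.0103, adjusted p = 0.596), with 0.24 among the lower-numbered and 0.40 among the higher-numbered tumours. Probe set 1 was at 7.79, 8.01 and 7.95 in Alb/AEG-1 tumours and at 7.92, 7.98 and 8.03 in WT tumours. Here the groups overlapped and the difference was -0.06 ± 0.09 (adjusted p = 0.853). Over the 6 arrays the 2 probe sets correlated at r = -0.43, so the higher Keap1 level rests on 1 of 2 probe sets. The platform annotation used here does not say which part of the transcript each probe set covers.

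**Figure D2:**
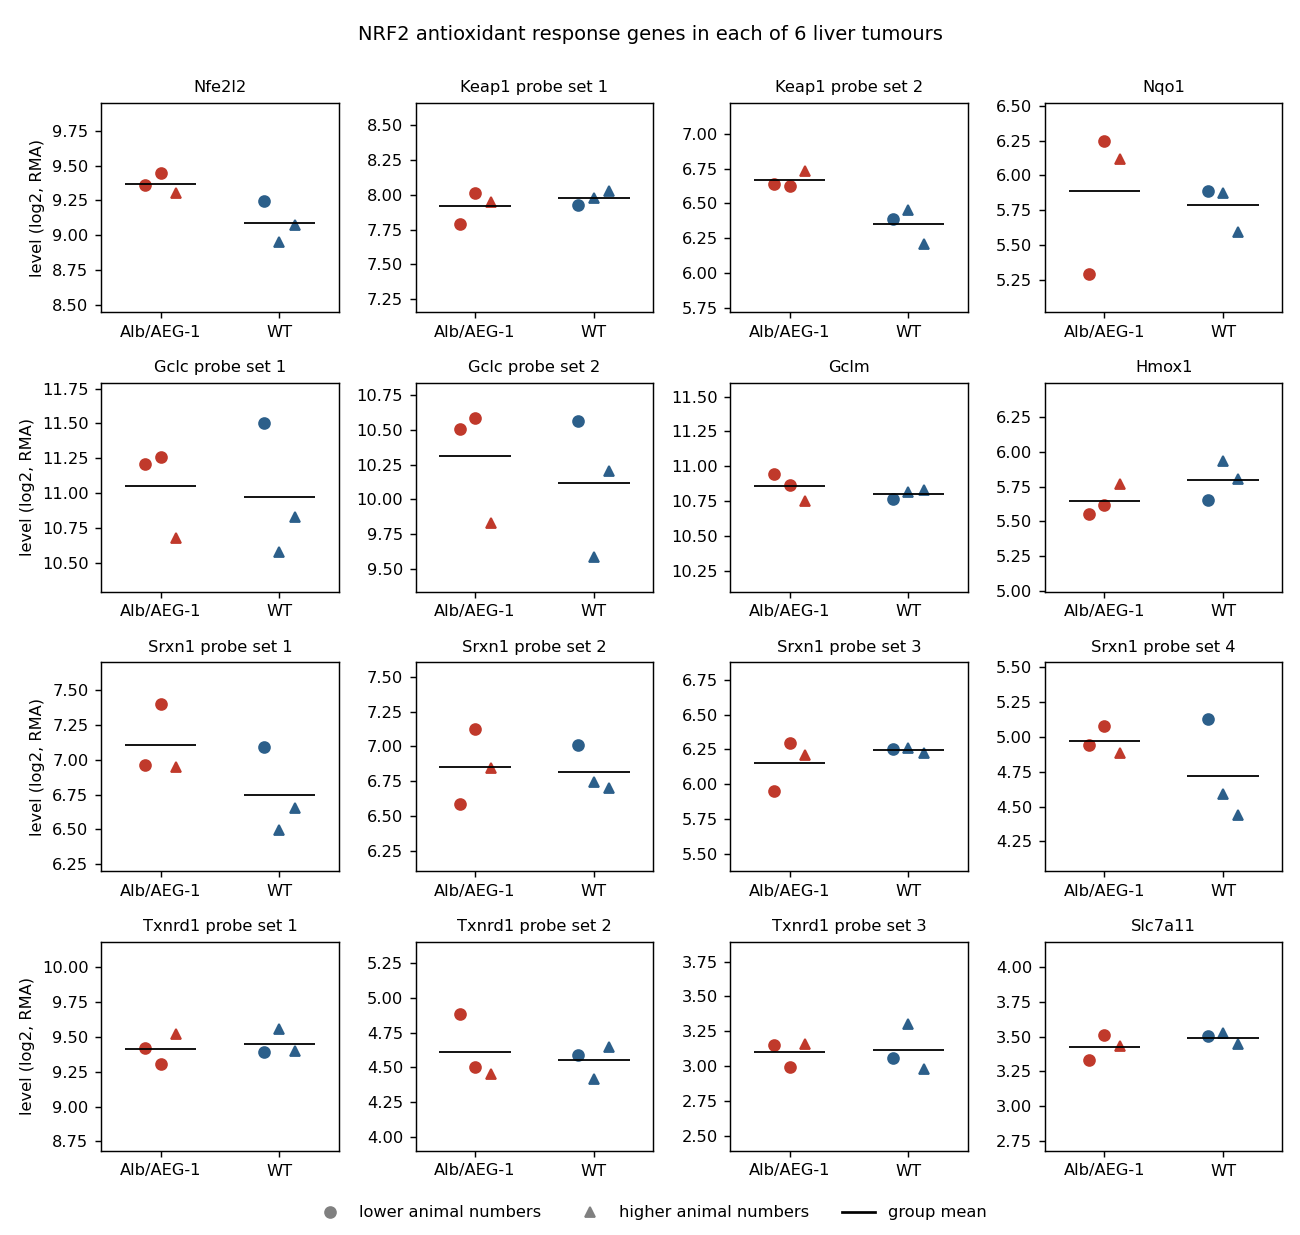
Log2 expression level (vertical axes, each spanning 1.5 units) on each of the 6 arrays for the 16 probe sets, Alb/AEG-1 in red at left and WT in blue at right, with circles for lower and triangles for higher animal numbers and lines for group means. The groups are apart in Nfe2l2 and Keap1 probe set 2, and in both Gclc panels all circles lie above all triangles.

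Among the targets, Nqo1 encodes a quinone reductase that is widely used as a readout of NRF2 activity. It was at 5.29, 6.25 and 6.12 in Alb/AEG-1 tumours and at 5.89, 5.88 and 5.59 in WT tumours. Alb/AEG-1 replicate 1 had the lowest value of all 6 arrays and replicates 2 and 3 the highest values, so the groups overlapped and the transgenic SD was 0.52 against a WT SD of 0.17. The difference was 0.10 ± 0.24, 1.07-fold with an interval of 0.725 to 1.58 (limma, adjusted p = 0.914). Among the lower-numbered tumours it was -0.12 and among the higher-numbered 0.39. Leaving out Alb/AEG-1 replicate 1 gave 0.40 (limma, unadjusted p = 0.0184, adjusted p = 0.839), and leaving out its replicate 2 gave -0.08.

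The genes whose pattern over the 6 arrays was most like that of Nqo1 were Clasp2, Acbd6, Abhd12, Mycbp and Pfn1, out of 7014 genes brighter than the median probe set. Their Pearson r with Nqo1 lay between 0.958 and 0.981 over the 6 arrays, and between 0.966 and 0.996 after each group's mean was removed. Clasp2, for example, which encodes a microtubule-binding protein, was at 6.03, 6.80 and 6.59 in Alb/AEG-1 tumours and at 6.42, 6.52 and 6.27 in WT tumours. It shared the low value of Alb/AEG-1 replicate 1. With so few arrays and so many genes compared, these values describe the arrays only, and none of these genes is an NRF2 pathway gene listed here.

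Gclc and Gclm encode the catalytic and the modifier subunit of glutamate-cysteine ligase, the rate-limiting enzyme of glutathione synthesis. Gclc probe set 1 was at 11.21, 11.26 and 10.68 in Alb/AEG-1 tumours and at 11.51, 10.58 and 10.83 in WT tumours. The groups overlapped, with an SD of 0.32 in Alb/AEG-1 and 0.48 in WT tumours. The difference was 0.08 ± 0.25, with an interval of 0.699-fold to 1.59-fold (limma, adjusted p = 0.937), and it became -0.15 ± 0.11 once the number range was put in the model (adjusted p = 0.811). Gclc probe set 2, of the s_at type that can bind related transcripts too, followed it closely (r = 0.93 over the 6 arrays) and differed by 0.19 ± 0.28, or by -0.04 ± 0.17 with the range in the model.

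Gclm varied less between tumours. It was at 10.95, 10.87 and 10.75 in Alb/AEG-1 tumours and at 10.77, 10.81 and 10.83 in WT tumours. Its difference was 0.05 ± 0.08, with an interval of 0.904-fold to 1.19-fold (limma, adjusted p = 0.865). The SD was 0.10 in Alb/AEG-1 and 0.03 in WT tumours.

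Slc7a11 encodes the light chain of the cystine/glutamate antiporter xCT, which supplies cysteine for glutathione. Its single probe set was dim, with a mean above that of only 11.9% of probe sets. It was at 3.33, 3.51 and 3.43 in Alb/AEG-1 tumours and at 3.50, 3.53 and 3.44 in WT tumours. The groups overlapped, and the difference was -0.07 ± 0.08 (limma, adjusted p = 0.823). At such a level near the bottom of the scale a difference in transcript amount can be compressed, so this value sets no firm bound on Slc7a11.

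Srxn1 encodes sulfiredoxin, which reduces over-oxidized peroxiredoxins, and it was covered by 4 probe sets. Probe set 1, also of the s_at type, was at 6.96, 7.40 and 6.95 in Alb/AEG-1 tumours and at 7.09, 6.50 and 6.65 in WT tumours. Only WT replicate 1 reached the transgenic values. The difference was 0.36 ± 0.18, the largest estimate among the 16 probe sets, with an interval of 0.951-fold to 1.72-fold (limma, unadjusted p = 0.0907, adjusted p = 0.638). Among the lower-numbered tumours it was 0.09 and among the higher-numbered 0.37. Leaving out WT replicate 1 gave 0.53 (limma, unadjusted p = 0.0144, adjusted p = 0.366), and leaving out Alb/AEG-1 replicate 2 gave 0.21.

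The other Srxn1 probe sets did not share 1 direction. Probe set 4 differed by 0.25 ± 0.18, and by 0.46 without WT replicate 1 and 0.11 without WT replicate 3. It was dim, with a mean above that of 34.2% of probe sets. Probe set 3 differed by -0.09 ± 0.10. Probe set 2 differed by 0.03 ± 0.15, and this sign turned after quantile normalization. Correlations between pairs of the 4 probe sets over the 6 arrays ran between -0.06 and 0.87. Averaged over its probe sets, Srxn1 differed by 0.14 (limma, adjusted p = 0.782).

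Txnrd1 encodes cytosolic thioredoxin reductase 1, a selenoprotein that keeps thioredoxin reduced. Its probe set 1 was at 9.42, 9.31 and 9.52 in Alb/AEG-1 tumours and at 9.39, 9.56 and 9.40 in WT tumours. These groups overlapped almost entirely. The difference was -0.04 ± 0.09, with an interval of 0.837-fold to 1.14-fold (limma, adjusted p = 0.92). Probe sets 2 and 3, both dimmer, differed by 0.06 ± 0.13 and by -0.01 ± 0.11. The sign of the latter turned after quantile normalization and median centring. Their means lay above those of 30.1% and 6.46% of probe sets, and a value as dim as that of probe set 3 sets no firm bound.

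Hmox1 encodes heme oxygenase 1, which splits heme into biliverdin, iron and carbon monoxide and is abundant in macrophages that clear red cells. It was at 5.56, 5.62 and 5.77 in Alb/AEG-1 tumours and at 5.65, 5.94 and 5.80 in WT tumours. Its mean was below the median probe set, above that of 48.1% of probe sets. The groups overlapped, and its difference of -0.15 ± 0.11 (limma, adjusted p = 0.693) was the most negative of the 16. The interval ran over 0.761-fold to 1.07-fold. The 12 macrophage and Kupffer cell markers had differences of the opposite sign, 4 of them at an unadjusted limma p below 0.05. Their mean level overlapped between the groups, and their part in the Hmox1 value was not tested.

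The members did not move as a block. The mean deviation of the 9 genes from their own 6-array mean, with 1 probe set per gene, was -0.06, 0.14 and 0.01 on the Alb/AEG-1 arrays and 0.06, -0.08 and -0.08 on the WT arrays. Alb/AEG-1 replicate 2 and WT replicate 1 were the highest and WT replicates 2 and 3 the lowest, and Alb/AEG-1 replicates 1 and 3 lay within the WT range. For the 7 target genes alone, without Nfe2l2 and Keap1, the means were -0.07, 0.14 and 0.00127 in Alb/AEG-1 tumours and 0.08, -0.06 and -0.09 in WT tumours, again with Alb/AEG-1 replicate 2 highest and WT replicate 3 lowest. The median difference of the 16 probe sets was -0.03 among the lower-numbered and -0.0033 among the higher-numbered tumours.

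Gclc was split by the animal number range and not by the genotype, a comparison chosen after the values were seen. Its probe set 1 averaged 10.69 over the 3 tumours with higher numbers and 11.33 over the 3 with lower numbers, and no array of 1 range reached the other. Fitted beside the genotype, the difference was -0.68 ± 0.11 log2, higher minus lower numbers (limma, unadjusted p = 0.000553, adjusted p = 0.177). Its second probe set averaged 9.87 in the higher and 10.55 in the lower numbers (-0.69 ± 0.17, adjusted p = 0.341). Neither passed over all probe sets, of which 1 did (0.00442%).

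Hmox1 and 2 of the 4 Srxn1 probe sets were also split by the range. Srxn1 was lower in the higher numbers by -0.37 ± 0.15 in probe set 1 (limma, adjusted p = 0.543) and by -0.37 ± 0.13 in probe set 4 (adjusted p = 0.504). In probe sets 2 (-0.15 ± 0.16) and 3 (0.04 ± 0.12) the ranges overlapped, and the sign of the last was the opposite. Hmox1 differed the other way, by 0.20 ± 0.09 (limma, adjusted p = 0.604). In all, the ranges did not overlap in 5 of 16 probe sets from 3 genes, against 15.8% of all probe sets, and 4 of 16 had an unadjusted p below 0.05, against 8.76%. The probe sets of 1 gene are not independent, and these 5 include pairs for Gclc and Srxn1. In the fit with both terms, the median size of the 16 differences was 0.14 for the range and 0.07 for the genotype. Over all probe sets these medians were 0.0928 and 0.0942. With 3 arrays in each range, animal, litter, time and handling cannot be told apart.

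**Figure D3:**
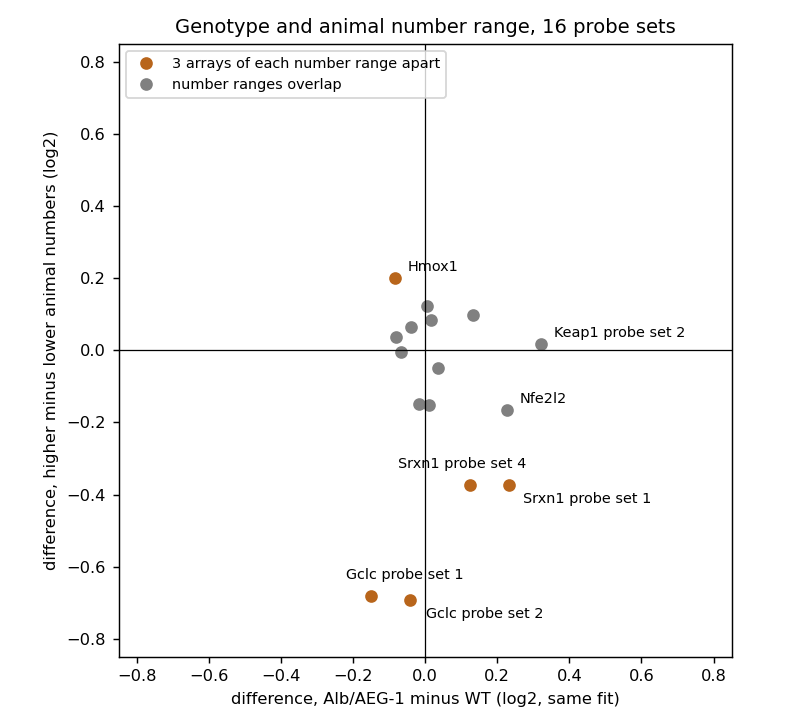
Difference between higher and lower animal numbers (vertical axis, log2) against the difference between Alb/AEG-1 and WT tumours (horizontal axis, log2) from 1 fit with both terms, for the 16 probe sets. Orange points, with the 3 arrays of each range apart, include both Gclc probe sets near -0.68 and -0.69 on the vertical axis, while Keap1 probe set 2 (0.32), Srxn1 probe set 1 and Nfe2l2 (both 0.23) lie furthest to the right.

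The rest of the pathway was read from a list of 85 further genes in 7 roles, of which 75 were measured. Adjusted over all probe sets, 0 of 75 passed (limma), and 3 had an unadjusted p below 0.05, which is 4% against 8.33% of all genes taken with 1 probe set each. Of the 3, the transgenic tumours were higher in 2 and lower in 1, where 3.86% of all genes were higher and 4.47% lower. The median difference over the 75 genes was 0.05 and over all genes -0.0081, with 44 of the 75 positive and 31 negative. Of all 12393 genes, 5925 were positive and 6468 negative. The groups did not overlap in 6 of 75, against 15.1% of all genes. The median was -0.03 among the lower-numbered and 0.10 among the higher-numbered tumours.

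Cbr3, a carbonyl reductase that responds to NRF2, was at 5.21, 5.54 and 5.22 in Alb/AEG-1 tumours and at 5.03, 4.94 and 4.91 in WT tumours. These groups did not overlap, and the difference was 0.36 ± 0.11 (limma, unadjusted p = 0.0131, adjusted p = 0.596). Blvrb, which encodes the flavin and biliverdin reductase BLVRB, was at 10.63, 10.76 and 10.60 in Alb/AEG-1 tumours and at 10.28, 10.49 and 10.28 in WT tumours. It was likewise apart, by 0.32 ± 0.10 (limma, adjusted p = 0.596). All 12 macrophage and Kupffer cell markers were also higher in Alb/AEG-1 tumours, while their mean level overlapped between the groups. The part of these markers in the Blvrb value was not tested. Bach2, a transcriptional repressor that pairs with small MAF proteins, was at 5.63, 5.44 and 5.59 in Alb/AEG-1 tumours and at 6.03, 5.66 and 5.83 in WT tumours. Its difference was -0.28 ± 0.11 (limma, adjusted p = 0.614), and its unadjusted p of 0.0393 became 0.0519 after quantile normalization and 0.051 after median centring, where Gpx4 was the third gene below 0.05 in its place. It was also above 0.05 without Alb/AEG-1 replicate 2 (0.122) or 3 (0.0626) and without WT replicate 1 (0.129) or 3 (0.0765). Cbr3 and Bach2 were dim, with means of 5.14 and 5.70 where the median probe set was at 5.83. With dim probe sets left out, both dropped from the list and only Blvrb was below 0.05.

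Among the 12 measured regulators 6 were positive and 6 negative. Besides Bach2, the lowest p-values belonged to Nfe2l1, an NRF2 relative (0.10 ± 0.09), and Cul3, the scaffold of the ligase that KEAP1 serves (0.11 ± 0.11). In the glutathione group, with 6 of 10 positive, the phospholipid peroxidase gene Gpx4 differed by 0.17 ± 0.08 without overlap (limma, adjusted p = 0.619). Gsr, glutathione reductase, differed by 0.14 ± 0.12 and the glutaredoxin gene Glrx by -0.19 ± 0.22. In the thioredoxin group 5 of 10 were positive, with Sesn2, a stress-induced sestrin, at 0.10 ± 0.09 and the methionine sulfoxide reductase genes Msra and Msrb1 at 0.11 ± 0.11 and 0.06 ± 0.09.

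Enzymes that supply NADPH to these systems were positive in 4 of 6. Pgd, of the pentose phosphate pathway, differed by 0.32 ± 0.22, with -0.30 among the lower-numbered and 0.81 among the higher-numbered tumours. The first of these rests on WT replicate 1 (9.04) as the only WT array, and the second on Alb/AEG-1 replicate 3 (9.08) as the only transgenic array. This Pgd probe set may also bind related transcripts. Averaged over its probe sets, Pgd differed by 0.16. Taldo1, of the same pathway, differed by 0.13 ± 0.11 and the isocitrate dehydrogenase gene Idh1 by -0.08 ± 0.09. In the detoxification group 13 of 23 were positive. After Cbr3 came Gstm1, a glutathione transferase, at 0.21 ± 0.10 without overlap, on a probe set that may also bind its relatives, and Abcc2, a canalicular efflux pump, at -0.28 ± 0.13.

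The iron and heme group was positive in 6 of 7, with Blvrb as given above. Tfrc, the transferrin receptor, differed by 0.51 ± 0.29 in its main probe set. Alb/AEG-1 replicate 3 was at 9.78 where the other 2 transgenic arrays were at 8.68 and 8.79. Averaged over its probe sets, Tfrc differed by only 0.07, so the larger value is not shared by all of them. Fech, ferrochelatase, differed by -0.20 ± 0.11. Of 7 genes for reactive oxygen and metal defence 4 were positive. The catalase gene Cat was at 13.17, 13.20 and 13.09 in Alb/AEG-1 tumours and at 13.33, 13.27 and 13.25 in WT tumours, apart but by only -0.13 ± 0.08 (limma, adjusted p = 0.67). The superoxide dismutase genes Sod1 and Sod3 differed by -0.08 ± 0.09 and 0.06 ± 0.10.

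**Figure D4:**
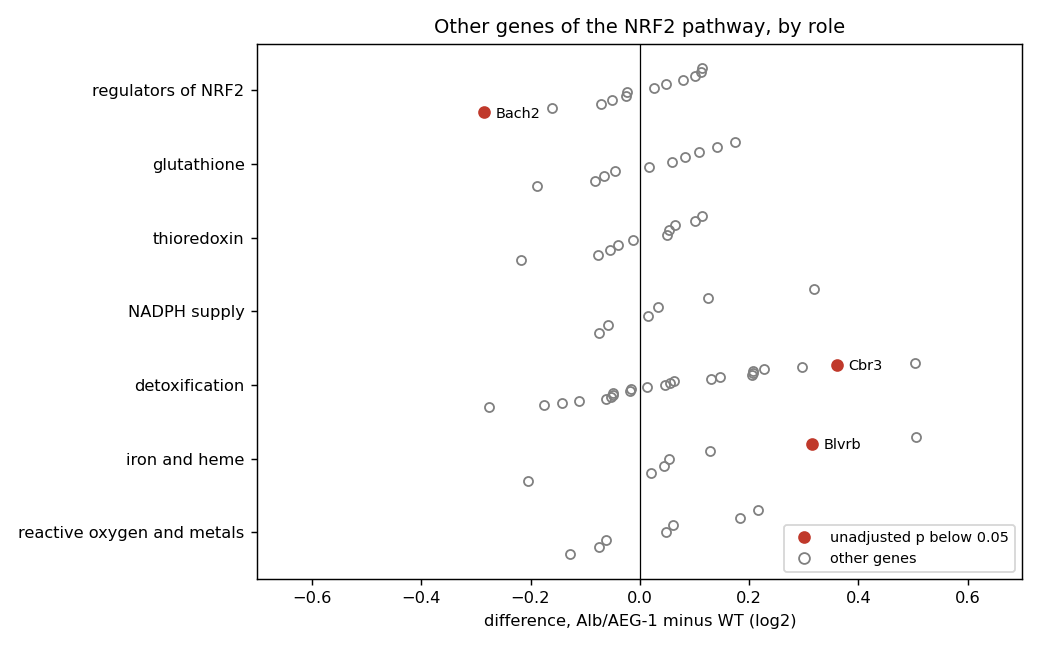
Difference in log2 expression level between Alb/AEG-1 and WT tumours (horizontal axis) for 75 further NRF2 pathway genes in 7 roles, 1 point per gene, sorted by value within a role. Filled points are Cbr3, Blvrb and Bach2, the 3 genes with an unadjusted p below 0.05, and the genes of every role lie on both sides of 0.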

How the data were processed

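Total RNA extracted with Trizol from 6 liver tumours was labelled from 5 µg and hybridized to Affymetrix arrays, per the labels' protocols. The deposited values are log2 levels made by the authors with RMA, per the submitters' processing notes, with no version given there. RMA quantile-normalizes arrays and would hide a change common to most genes. Of 22690 probe sets, 64 controls were left out. Symbols came from the platform annotation, updated by gene ID through a RefSeq table of GRCm38.p6: 20380 probe sets had 1 symbol, 691 several and 1555 none. The main probe set of a gene was that with the highest mean.

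Groups followed the genotype labels, with replicates numbered in accession order and different animal numbers in the titles. The labels do not say more about the animals, so p-values measure the spread between these samples. Differences were fitted with limma 3.58.1 in R 4.3.3 (lmFit, eBayes, 7.53 total degrees of freedom, 2-sided, threshold 0.05). The fit was tested on simulated data with changes of 2-fold and more, so not at the smaller sizes of the differences above. With 3 against 3 arrays an exact permutation test cannot go below p = 0.1, so none is given. Named genes were all members, the 3 lowest p-values per role of the wider list, and the 5 genes most correlated with Nqo1. The members and lists were chosen with earlier results of these data known, and the 10 listed genes without a probe set of their own were not analysed here. RefSeq promoter windows were not at hand for Gclc and Hmox1.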

Additional observations from a re-analysis of the deposited data

How the results depend on the processing

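No paired analysis was possible because the labels give no shared replicate numbers. Over 234 alternative values of the 16 probe sets, 0 passed an adjusted p of 0.05 (limma, lowest 0.339) and 28, in 9 probe sets, changed sign. With the number range in the model, the sign changed in Gclc (-0.15 and -0.043), Srxn1 probe set 2 (-0.018), and Txnrd1 probe sets 1 (0.0053) and 3 (0.016). The last was also 0.021 after quantile normalization, 4.20e-05 after median centring and 0.0018 with array weights, and Srxn1 probe set 2 was -0.0018 after quantile normalization. With probe sets averaged, Keap1 was 0.13 and Txnrd1 0.0039. Leaving out each array in turn gave -0.11 to 0.0034 for Keap1 probe set 1, -0.082 to 0.40 for Nqo1, -0.12 to 0.34 and -0.078 to 0.43 for Gclc, -0.10 to 0.16 for Srxn1 probe set 2, -0.16 to 0.0078 for Srxn1 probe set 3, and -0.088 to 0.019, -0.076 to 0.14 and -0.080 to 0.081 for the Txnrd1 probe sets. Fitted without the genotype, the range difference changed sign in Keap1 probe set 2 (-0.089) and Slc7a11 (0.019). Among the genes named from the wider list the sign changed in 2: Sod3 was -0.019 with probe sets averaged and -0.014 to 0.15 with an array left out, and Glrx -0.37 to 0.0098 with an array left out. The causes were not tested.

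Members at an unadjusted p below 0.05, 2 as reported, were 1 with 1 probe set or averaged probe sets per gene, where the second Keap1 probe set has no row of its own, and 1 to 4 with an array left out, 4 being without WT replicate 1. For the wider list, 3 as reported, there were 5 with limma-trend, 1 without dim probe sets, and 3 to 6 with an array left out, 6 being without WT replicate 1. All probe sets past an adjusted p of 0.05, 1 as reported, were 2 with limma-trend or averaged probe sets, 0 with 1 probe set per gene or the range in the model, and 0 to 1 with an array left out. At an unadjusted p below 0.05, where 1823 were reported, there were 764 without dim probe sets, 1029 with 1 probe set per gene, 1019 with averaged probe sets, and 1207 to 2580 with an array left out. The alternative for linear values was not run, since the values are log2.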
